A study of Mus musculus with 6 samples.

Results

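The genes described here are 10 members of the BCL2 family, which decides whether a cell keeps or breaches its mitochondrial outer membrane: Mcl1, Bcl2, Bcl2l1, Bcl2a1a, Bcl2a1b, Bcl2a1d, Bcl2l11, Bax, Bak1 and Bbc3. They are named survival and death genes of the family, taken by symbol from a table of 28987 mouse genes. Of the 10, 8 had a row in the table, and all 8 passed the filter on low values in each comparison. Bcl2a1a and Bcl2a1d matched no row and were not analysed here.

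RNA was sequenced from sorted bone marrow cells of C57BL/6 mice that carried mutations of CBL, a ubiquitin ligase that restrains growth factor receptors, and of RUNX1, a transcription factor of blood formation. Both mutations were present in every group, so no library came from unmutated cells, and how they were introduced is not given in the sources used here. The 4 groups were Ly6G+ myeloid cells of Mdivi-1-treated mice (2 libraries), Ly6G+ myeloid cells of vehicle-treated mice (2 libraries), stem and progenitor cells (HSCPs) of Mdivi-1-treated mice (1 library) and HSCPs of vehicle-treated mice (1 library). Mdivi-1 is a small compound known as a blocker of Drp1, the GTPase that divides mitochondria. HSCPs had been enriched through CD117, the stem cell factor receptor encoded by Kit, and mutant cells of both populations had been sorted by flow cytometry. The labels do not tie a library to a mouse, so the p-values below measure only the spread between these libraries, which may be technical.

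In this family, survival proteins (MCL1, BCL2, BCL-XL and A1) hold the membrane intact by binding the proteins that would open it. The effectors BAX and BAK form the pores through which cytochrome c leaves. BH3-only proteins such as BIM and PUMA sense stress or loss of growth factors, occupy the survival proteins and free the effectors. Neutrophils are short-lived cells that are known to lean on MCL1, a protein with a rapid turnover, whereas early progenitors and lymphocytes draw on BCL2 and BCL-XL as well.

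Values are in TPM, a unit in which each gene's share of the library is corrected for transcript length, so levels of different genes can be set side by side. Between 11456 and 11930 genes reached 1 TPM in a library, and read depth is unknown because TPM keeps no totals. Kit stood at 8.73 to 14.1 TPM in the 4 Ly6G+ libraries, against 64.9 and 72.2 TPM in HSCPs. Ly6g stood at 642 to 840 TPM in Ly6G+ cells, against 90.1 and 187 TPM in HSCPs. The summed level of 9 late neutrophil markers was 29675 to 43969 TPM in Ly6G+ cells, and it was 2181 and 2805 TPM in HSCPs, so both populations matched their labels while the HSCP libraries also held transcripts of late neutrophil genes. None of the 78 markers in 11 cell type lists was at 0 in any library. In such bulk libraries, fewer cells of a type and less RNA per cell cannot be told apart.

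The A1 genes are hard to tell apart by sequence, and the sequences are shown for that reason. Mouse A1 is encoded by near-identical copies on chromosome 9: Bcl2a1b (89199209 to 89207827, plus strand), Bcl2a1a (88956900 to 88962419, plus strand) and Bcl2a1d (88723285 to 88731914, minus strand), on GRCm38, the assembly named mm10. The first 90 coding bases of each are shown 5′ to 3′ from GENCODE M21 transcripts, with capitals marking bases that differ from Bcl2a1b.
Bcl2a1b: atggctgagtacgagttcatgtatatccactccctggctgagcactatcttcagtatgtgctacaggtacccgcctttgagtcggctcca
Bcl2a1a: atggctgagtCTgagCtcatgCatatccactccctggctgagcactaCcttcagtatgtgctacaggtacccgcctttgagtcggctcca
Bcl2a1d: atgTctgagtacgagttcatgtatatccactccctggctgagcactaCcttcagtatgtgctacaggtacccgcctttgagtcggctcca
Counted from the A of the start codon, with the base of Bcl2a1b first, the differences in this stretch were A11C, C12T, T16C, T22C and T48C in Bcl2a1a, and G4T and T48C in Bcl2a1d. Over the whole coding length of 516 bases, Bcl2a1a differed from Bcl2a1b at 11 positions (97.9% identity) and Bcl2a1d at 6 positions (98.8% identity). Of the 787 different 31-base words in Bcl2a1b transcripts, 88 (11.2%) occurred in no other gene, 570 also occurred in Bcl2a1d and 446 in Bcl2a1a. The Bcl2a1b row can therefore hold reads of its copies, and its values are uncertain for that reason. Bcl2a1c, a further copy, was listed at 0 in all 6 libraries.

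The other members were easier to tell apart by sequence. Unique 31-base words made up 99.5% for Mcl1, 93.8% for Bcl2, 99.98% for Bcl2l1, 99.6% for Bcl2l11 and 100% for Bbc3. Bax had 88.9%, with 164 of its words shared with Gm45808, and Bak1 had 79.6%, with 502 shared with Ggnbp1.

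Promoter sequence is shown for Mcl1 and Bcl2, the survival genes that lay furthest apart between the populations and in opposite directions. Each run gives the 250 bases before the RefSeq start in the gene's own direction on GRCm38.p6, as chr3:95658471-95658720 (plus strand) for Mcl1 and chr1:106714291-106714540 (minus strand) for Bcl2. For both genes that start lies upstream of the GENCODE M21 gene span, and positions below count from the RefSeq start. Capitals mark motif matches on either strand.
Mcl1: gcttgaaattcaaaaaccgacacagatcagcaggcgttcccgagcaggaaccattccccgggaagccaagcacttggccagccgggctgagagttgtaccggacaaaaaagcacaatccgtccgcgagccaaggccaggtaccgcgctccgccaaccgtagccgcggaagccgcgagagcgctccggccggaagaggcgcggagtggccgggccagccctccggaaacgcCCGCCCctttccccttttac
Bcl2: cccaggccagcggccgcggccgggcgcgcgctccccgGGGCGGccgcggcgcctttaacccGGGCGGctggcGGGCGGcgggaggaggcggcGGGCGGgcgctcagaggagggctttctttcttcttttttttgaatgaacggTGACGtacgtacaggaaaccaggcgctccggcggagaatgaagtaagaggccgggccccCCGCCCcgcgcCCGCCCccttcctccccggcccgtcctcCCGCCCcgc
The motifs searched were the GC box (GGGCGG), the CCAAT box (CCAAT), the cyclic AMP response half-site (TGACG), the STAT motif (TTCNNNGAA), the TATA box (TATAAA), the E box (CACGTG) and the p53 half-site. Mcl1 held 1 GC box, which began 20 bases before the start and is written in reverse complement. Bcl2 held 7 GC boxes, and 1 cyclic AMP response half-site began 107 bases before its start. No matches overlapped. Among 32851 windows of the same length, 32.7% held a GC box, 17.8% the cyclic AMP response half-site, 33.8% the CCAAT box, 12.4% the TATA box, 7.13% the p53 half-site, 7.02% the STAT motif and 6.02% the E box. These matches describe letters and say nothing of binding.

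Mcl1 was the only member that passed the test between Mdivi-1 and vehicle in Ly6G+ cells. Mcl1 (chromosome 3, 95658788 to 95663176, plus strand) encodes MCL1, the survival protein on which neutrophils depend. It stood at 445 and 445 TPM in the Ly6G+ Mdivi-1 libraries, against 329.5 and 319.9 TPM in the Ly6G+ vehicle libraries. Both treated libraries lay above both vehicle libraries, and the gap was far wider than the spread within either arm. The mean was 445 ± 0.385 TPM with Mdivi-1 and 325 ± 6.81 TPM with vehicle (SD, n = 2 each), 37.0% higher with Mdivi-1. On the log2(TPM + 1) scale the change was 0.45 (SE 0.048, 95% interval 0.33 to 0.58, limma adjusted p = 0.0134). Across all genes tested, 6.7% were called in either direction and 2.46% were called higher, which is the background for this 1 call among 8 members. The call was lost when any 1 of the 4 libraries was left out, with a change of 0.43 to 0.47 and limma adjusted p between 0.0543 and 0.122. It was also lost with a plain prior on the variance (limma adjusted p = 0.0619), and over all alternatives the limma adjusted p ran from 0.00792 to 0.122.

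**Figure D1:**
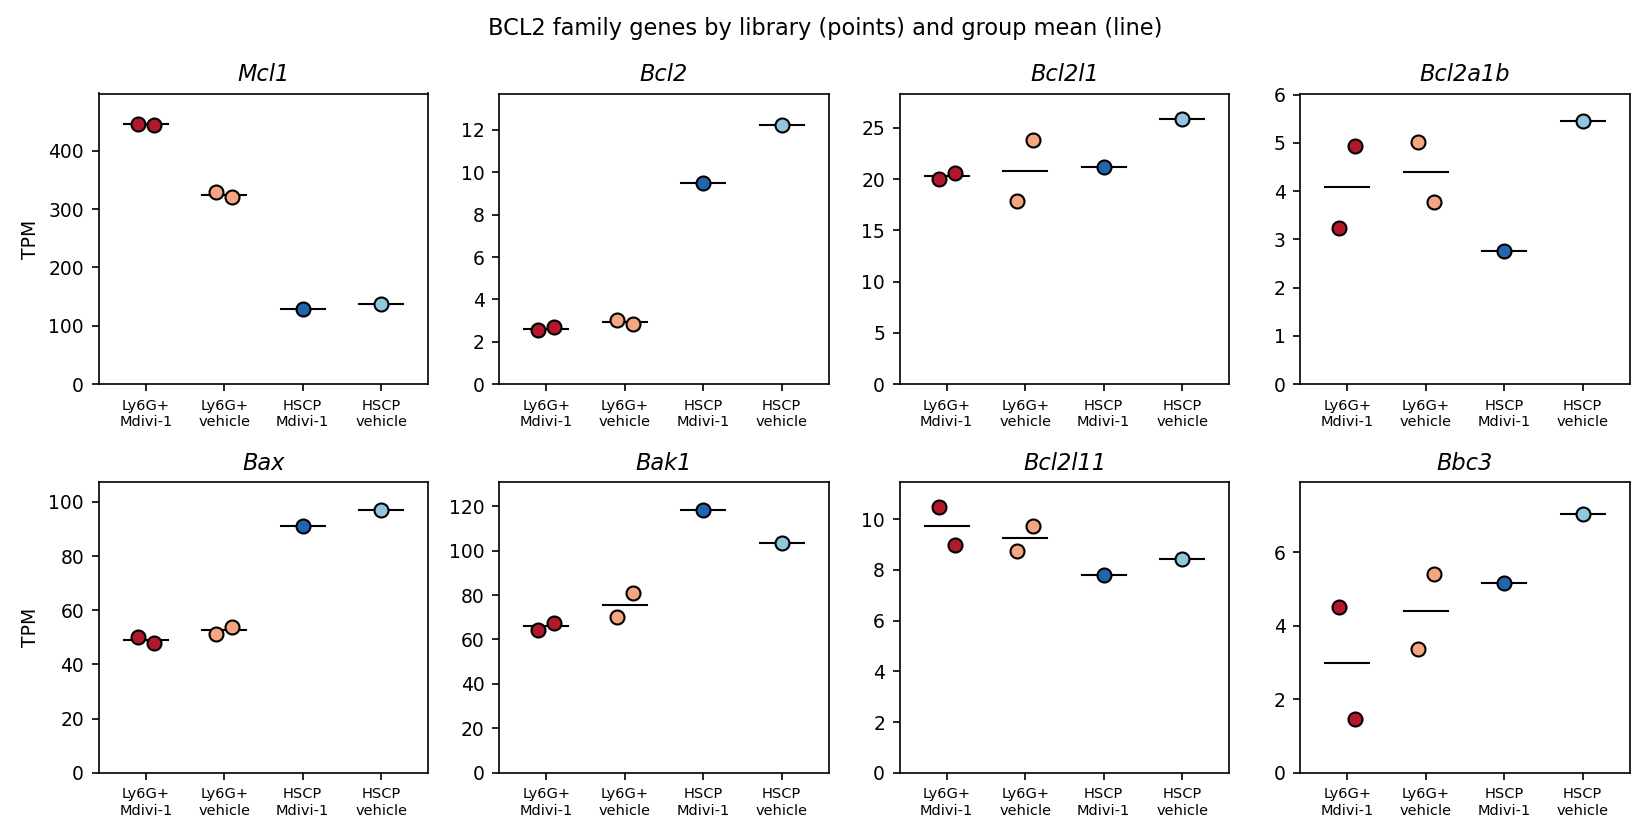
TPM of the 8 members with a row in the table, 1 panel per gene with its own axis starting at 0. Points are libraries and lines are group means, with Mdivi-1 left of vehicle within Ly6G+ and within HSCP. Mcl1 shows 445 and 445 TPM in Ly6G+ Mdivi-1 against 329.5 and 319.9 TPM in Ly6G+ vehicle, while Bcl2, Bax and Bak1 are lower in all 4 Ly6G+ libraries than in both HSCP libraries.

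Markers of other cell types and of neutrophil stage moved between the same libraries. Of 9 late neutrophil markers, 7 were higher with Mdivi-1 and 0 lower, and their summed level was 43535 to 43969 TPM with Mdivi-1, against 29675 to 29735 TPM with vehicle. Most of that sum was Retnlg, at 32487 and 32586 TPM with Mdivi-1 and 22645 and 22901.5 TPM with vehicle. The 2 that did not pass were Mmp9, which lay higher with Mdivi-1, and Ly6g, which lay lower (791 and 642 TPM, against 814 and 840 TPM with vehicle). Granule-stage markers summed to 39276 to 40335 TPM with Mdivi-1, against 50302 to 53905 TPM with vehicle, and 3 of 8 were lower (Ltf, Camp and Ngp). Of the 5 that did not pass, Mpo and Ctsg lay higher and Lcn2 lower in both Mdivi-1 libraries, and Elane and Prtn3 overlapped. B cell markers summed to 22.4 to 23.3 TPM with Mdivi-1, against 141 to 142 TPM with vehicle, and 8 of 9 were lower. Lower calls also covered 6 of 6 basophil and mast cell markers (166 to 175 TPM summed with Mdivi-1, against 496 to 504 TPM with vehicle) and 6 of 7 megakaryocyte markers (99.8 to 116 TPM, against 254 to 257 TPM). Dendritic cell markers were lower in 6 of 7 (363 to 384 TPM summed with Mdivi-1, against 671 to 705 TPM with vehicle). Fewer markers passed among stem and progenitor (2 of 7 lower), erythroid (1 of 6 lower), monocyte and macrophage (1 of 7 higher), T and NK cell (1 of 5 higher) and eosinophil genes (0 of 4). Their part in the Mcl1 result was not tested.

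The 3 other survival genes with a row did not pass in Ly6G+ cells. Bcl2 (chromosome 1, 106538178 to 106714274, minus strand), the founding member of the family, stood at 2.55 and 2.70 TPM with Mdivi-1, against 3.04 and 2.82 TPM with vehicle. The arms did not overlap, yet the change of -0.12 came with an interval of -0.47 to 0.23 (limma adjusted p = 0.637). Bcl2l1 (chromosome 2, 152780668 to 152831728, minus strand) encodes BCL-XL, and a gene-level value does not separate it from the short death-promoting splice form. Its values were 20.0 and 20.6 TPM with Mdivi-1, inside the 17.8 and 23.8 TPM seen with vehicle (change -0.02, limma adjusted p = 0.944). Bcl2a1b had 3.24 and 4.93 TPM with Mdivi-1, against 5.02 and 3.77 TPM with vehicle, again with overlapping arms (change -0.10, limma adjusted p = 0.826).

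Neither effector gene passed. Bax (chromosome 7, 45461697 to 45466898, minus strand) stood at 50.3 and 47.9 TPM with Mdivi-1, against 51.2 and 54.0 TPM with vehicle (change -0.10, limma adjusted p = 0.415). Bak1 (chromosome 17, 27019810 to 27029009, minus strand) stood at 64.3 and 67.6 TPM with Mdivi-1, against 69.9 and 81.0 TPM with vehicle. Its change was -0.19, with an interval of -0.41 to 0.04 (limma adjusted p = 0.260). For both effectors each Mdivi-1 library lay below each vehicle library, by differences that the test did not separate from the spread. How often arms lie apart over all genes was not counted, so nothing is read from this separation.

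The BH3-only genes did not pass either. Bcl2l11 (chromosome 2, 128126038 to 128162547, plus strand) encodes BIM, the BH3-only protein that acts after growth factor withdrawal. It had 10.5 and 8.98 TPM with Mdivi-1, against 8.75 and 9.74 TPM with vehicle (change 0.06, limma adjusted p = 0.773). Bbc3 (chromosome 7, 16308393 to 16318205, plus strand) encodes PUMA, a target of p53. It had 4.50 and 1.48 TPM with Mdivi-1, against 3.36 and 5.42 TPM with vehicle. Bbc3 was the most uneven member, with a change of -0.52 and an interval of -1.60 to 0.56 (limma adjusted p = 0.495). Over the 8 members the median change was -0.10, against -0.05 over all 11775 genes tested.

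In HSCPs, where each arm had 1 library and no test was possible, no member passed the size threshold of 1 on the log2 scale at a mean of at least 10 TPM. Of the genes with that mean, 0.927% (74 of 7987) passed it, 0.388% higher and 0.538% lower. Bcl2a1b, Bcl2l11 and Bbc3 averaged 4.11, 8.11 and 6.11 TPM in HSCPs, under 10 TPM, so they could not pass whatever their difference. Mcl1 stood at 129 TPM with Mdivi-1 and 137 TPM with vehicle, a difference of -0.09. Bcl2 stood at 9.49 TPM with Mdivi-1 and 12.2 TPM with vehicle, a difference of -0.33. Among the survival genes, Bcl2l1 differed by -0.27 (21.2 TPM with Mdivi-1, 25.9 TPM with vehicle) and Bcl2a1b by -0.77 (2.77 TPM with Mdivi-1, 5.44 TPM with vehicle).

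The effectors in HSCPs lay on either side of 0. Bax differed by -0.09 (91.2 TPM with Mdivi-1, 97.0 TPM with vehicle) and Bak1 by 0.19 (118 TPM with Mdivi-1, 104 TPM with vehicle). The BH3-only genes differed by -0.10 for Bcl2l11 (7.81 TPM with Mdivi-1, 8.42 TPM with vehicle) and by -0.38 for Bbc3 (5.18 TPM with Mdivi-1, 7.05 TPM with vehicle). In the same pair of libraries, megakaryocyte markers summed to 159 TPM with Mdivi-1 and 323 TPM with vehicle, and dendritic cell markers to 816 TPM with Mdivi-1 and 1333 TPM with vehicle. Eosinophil markers summed to 366 TPM with Mdivi-1 and 658 TPM with vehicle, and late neutrophil markers to 2181 TPM with Mdivi-1 and 2805 TPM with vehicle. Their part in these differences was not tested.

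Whether the treatment difference itself differed between Ly6G+ cells and HSCPs was tested as an interaction, with the single HSCP libraries assumed to vary like the Ly6G+ ones. For Mcl1 the difference of differences was 0.54 (SE 0.084, 95% interval 0.32 to 0.76), which did not pass after adjustment (limma adjusted p = 0.181). Mcl1 was the only member at an unadjusted p under 0.05. Across 12338 genes limma called 0 (0%), while 1398 had an unadjusted p under 0.05. Bak1, with a change of -0.19 in Ly6G+ cells and a difference of 0.19 in HSCPs, gave -0.38 (SE 0.15, limma adjusted p = 0.458). The other 6 members had limma adjusted p between 0.560 and 0.981.

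**Figure D2:**
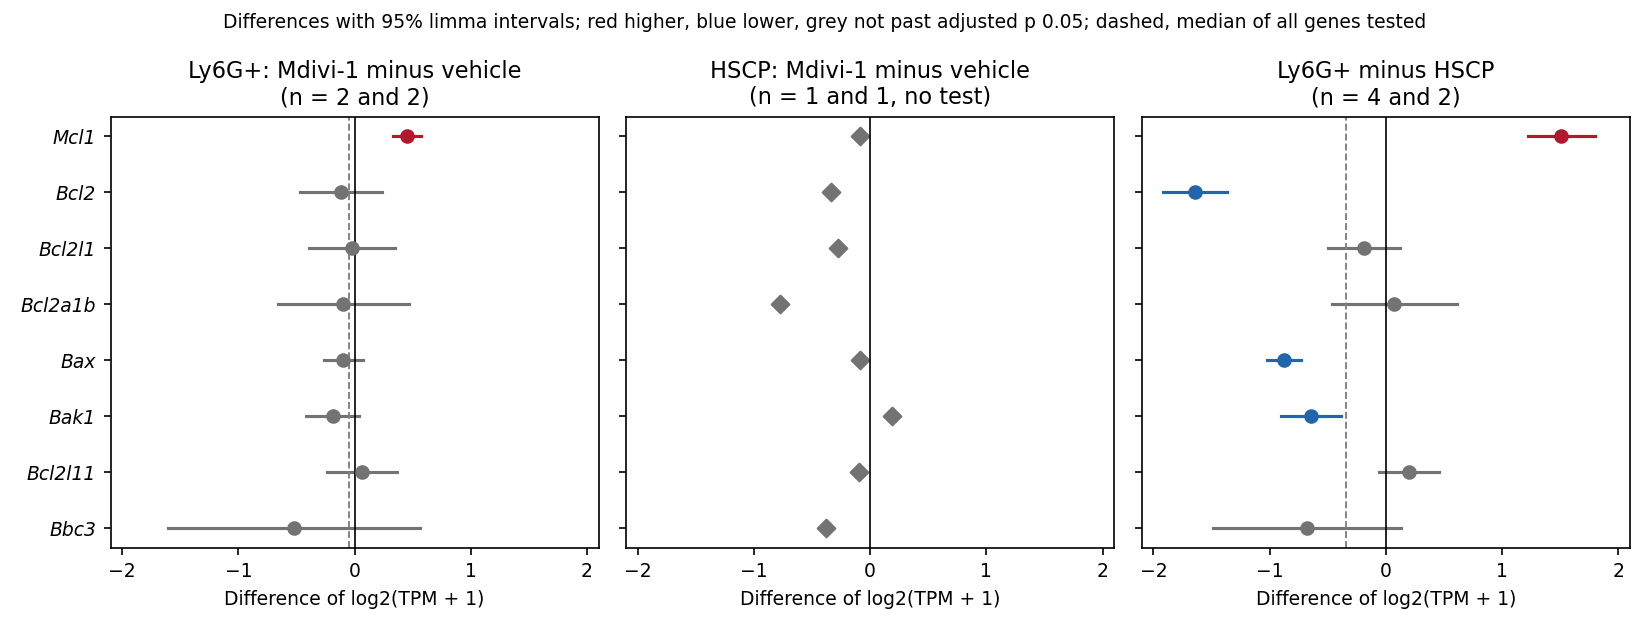
Differences of log2(TPM + 1) for the 8 members, with 1 panel each for Mdivi-1 minus vehicle in Ly6G+ cells (n = 2 and 2), Mdivi-1 minus vehicle in HSCPs (n = 1 and 1, no test) and Ly6G+ minus HSCP (n = 4 and 2). Circles carry 95% limma intervals, red and blue mark higher and lower calls, and dashed lines mark the median of all genes tested. Mcl1 sits at 0.45 in the Ly6G+ panel, -0.09 in the HSCP panel and 1.51 between populations, where Bcl2 sits at -1.64.

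Between populations, 4 of the 8 members passed: Mcl1 was higher in Ly6G+ cells, and Bcl2, Bax and Bak1 were lower. All 6 libraries entered this fit, which had a term for treatment, and 72.4% of all genes tested passed it (22.2% higher and 50.3% lower), so 4 of 8 is no more than the background. The median over all genes was -0.35, which became -0.07 after upper-quartile scaling and -0.0032 after median-of-ratios scaling. For that reason changes are also given relative to that median. The median over the 8 members was -0.42. In the averages below, each SD is over the Mdivi-1 and vehicle libraries of a population together, so it also holds the treatment difference.

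Mcl1 averaged 385 ± 69.5 TPM in Ly6G+ cells (SD, n = 4) and 133 ± 5.83 TPM in HSCPs (SD, n = 2), a ratio of 2.90. Its lowest Ly6G+ library, at 319.9 TPM, lay well above the higher HSCP library at 137 TPM. The change was 1.51 (SE 0.12, limma adjusted p = 6.5e-05), or 1.86 above the median gene. Mcl1 ranked 257th and 262nd of all genes in the Ly6G+ Mdivi-1 libraries and 329th and 345th in the Ly6G+ vehicle libraries, against 1039th in HSCP Mdivi-1 and 929th in HSCP vehicle.

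Bcl2 ran the other way. It averaged 2.78 ± 0.210 TPM in Ly6G+ cells (SD, n = 4) and 10.9 ± 1.92 TPM in HSCPs (SD, n = 2). The 4 Ly6G+ libraries spanned 2.55 to 3.04 TPM, and both HSCP libraries, at 9.49 and 12.2 TPM, lay above them. The change was -1.64 (SE 0.11, limma adjusted p = 4.0e-05), or -1.30 relative to the median gene. Under both other scalings Mcl1 and Bcl2 kept their calls, at 1.83 to 1.90 for Mcl1 and -1.37 to -1.31 for Bcl2.

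Both effector genes were lower in Ly6G+ cells. Bax averaged 50.8 ± 2.50 TPM in Ly6G+ cells (SD, n = 4) and 94.1 ± 4.08 TPM in HSCPs (SD, n = 2), a change of -0.88 (SE 0.060, limma adjusted p = 4.0e-05). Bak1 averaged 70.7 ± 7.24 TPM in Ly6G+ cells (SD, n = 4) and 111 ± 10.5 TPM in HSCPs (SD, n = 2), a change of -0.65 (SE 0.11, limma adjusted p = 0.00167). Neither gene had overlapping populations. How often populations lie apart over all genes was not counted, so nothing is read from that separation. Relative to the median gene the changes were -0.53 for Bax and -0.30 for Bak1, and both calls held with median-of-ratios scaling, at -0.49 for Bax (limma adjusted p = 0.000477) and -0.26 for Bak1 (limma adjusted p = 0.0428).

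The remaining 4 members did not pass between populations. Bcl2l1 averaged 20.6 ± 2.47 TPM in Ly6G+ cells (SD, n = 4) and 23.5 ± 3.29 TPM in HSCPs (SD, n = 2), a change of -0.19 with an interval of -0.49 to 0.12. Its sign turned under both other scalings, to 0.12 and 0.18. Bcl2a1b averaged 4.24 ± 0.880 TPM in Ly6G+ cells and 4.11 ± 1.89 TPM in HSCPs, a change of 0.07 with an interval of -0.47 to 0.61. Bbc3 averaged 3.69 ± 1.70 TPM in Ly6G+ cells and 6.11 ± 1.32 TPM in HSCPs, and its change of -0.67 passed only without the first Ly6G+ Mdivi-1 library (-0.91, limma adjusted p = 0.0209, against 0.112 with it). For Bcl2l11, averages of 9.49 ± 0.784 TPM in Ly6G+ cells and 8.11 ± 0.428 TPM in HSCPs gave a change of 0.20 (limma adjusted p = 0.136). Scaling altered that call: Bcl2l11 was higher in Ly6G+ cells, by 0.55, with median-of-ratios scaling (limma adjusted p = 0.00472), and by 0.48 with upper-quartile scaling (limma adjusted p = 0.00716).

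Marker lists also differed between the populations. All 9 late neutrophil markers were higher in Ly6G+ cells, and all 8 stem and progenitor markers were lower (109 to 140 TPM summed in Ly6G+ cells, 578 and 616 TPM in HSCPs). Of the granule-stage markers 4 were higher and 4 lower, and of the monocyte and macrophage markers 5 were higher and 1 lower. Lower calls outnumbered higher ones among erythroid (5 against 0 of 6), eosinophil (3 against 0 of 4), dendritic cell (4 against 2 of 7) and megakaryocyte genes (3 against 2 of 7). B cell genes split 1 higher and 1 lower of 9, basophil and mast cell genes 3 higher and 2 lower of 6, and T and NK cell genes 2 higher and 1 lower of 5. The part of these cells in the members' differences was not tested.

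Set against each other within a library, the members gave a different balance in each population. Mcl1 made up 94.5% and 94.0% of the summed level of Mcl1, Bcl2, Bcl2l1 and Bcl2a1b in Ly6G+ Mdivi-1, and 92.7% and 91.3% in Ly6G+ vehicle. In HSCPs the share was 79.3% with Mdivi-1 and 75.9% with vehicle. Mcl1 was thus the most abundant transcript within this sum in every library. Bcl2a1a and Bcl2a1d had no row and could not be ranked, the Bcl2a1b row is uncertain, and Bcl2l2 was not part of the sum. Bcl2 made up 0.541% and 0.570% of the same sum in Ly6G+ Mdivi-1, 0.856% and 0.806% in Ly6G+ vehicle, 5.86% in HSCP Mdivi-1 and 6.78% in HSCP vehicle. The ratio of Mcl1 to Bcl2 was 175 and 165 in Ly6G+ Mdivi-1, 108 and 113 in Ly6G+ vehicle, 13.5 in HSCP Mdivi-1 and 11.2 in HSCP vehicle.

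The survival sum exceeded the effectors in Ly6G+ cells and fell short of them in HSCPs. Survival genes summed to 471 and 473 TPM in Ly6G+ Mdivi-1 and to 355 and 350.3 TPM in Ly6G+ vehicle, against 162 TPM in HSCP Mdivi-1 and 180.3 TPM in HSCP vehicle. Bax and Bak1 summed to 115 and 116 TPM in Ly6G+ Mdivi-1 and to 121 and 135 TPM in Ly6G+ vehicle, against 209.7 TPM in HSCP Mdivi-1 and 200.6 TPM in HSCP vehicle. The ratio of the survival sum to the effector sum was 4.11 and 4.09 in Ly6G+ Mdivi-1, 2.94 and 2.60 in Ly6G+ vehicle, 0.773 in HSCP Mdivi-1 and 0.899 in HSCP vehicle. All 4 Ly6G+ libraries lay above 1 and both HSCP libraries below it, and the Ly6G+ arms did not overlap. The survival sum held only Mcl1, Bcl2, Bcl2l1 and Bcl2a1b. Bcl2a1a and Bcl2a1d had no row and Bcl2l2 was not included, so the side of 1 depends on the genes summed. Mcl1 made up 91.3% to 94.5% of the sum in Ly6G+ libraries, so the gap between those arms largely repeats that of Mcl1. These sums are descriptions of transcript levels, and protein was not measured.

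**Figure D3:**
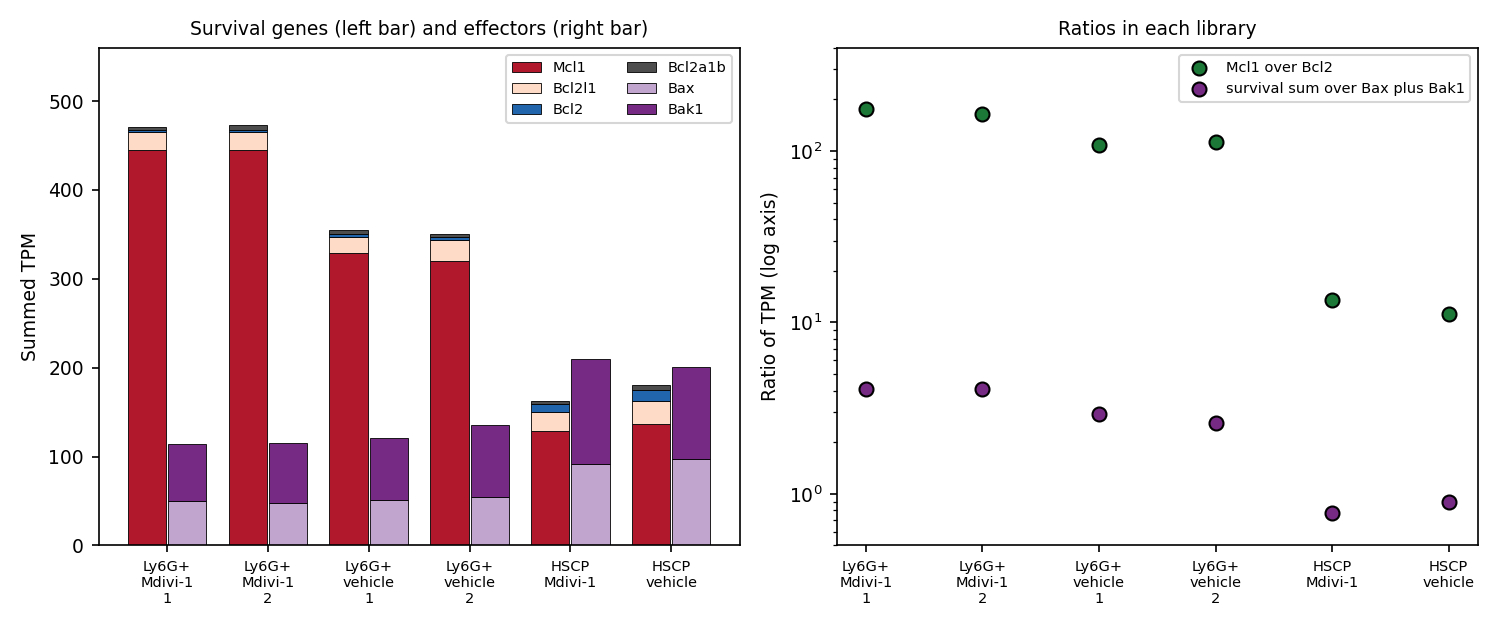
Left: summed TPM in each library, with the survival genes Mcl1, Bcl2l1, Bcl2 and Bcl2a1b stacked in the left bar and Bax and Bak1 in the right bar. Right: the ratio of Mcl1 to Bcl2 and of the survival sum to Bax plus Bak1 in each library, on a log axis. The second ratio is 4.11 and 4.09 in Ly6G+ Mdivi-1, 2.94 and 2.60 in Ly6G+ vehicle, 0.773 in HSCP Mdivi-1 and 0.899 in HSCP vehicle.

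The order by level of the 8 members with a row was much the same across libraries. Mcl1 came first, followed by Bak1, Bax and Bcl2l1, in all 6. Bak1 exceeded Bax by a ratio of 1.28 and 1.41 in Ly6G+ Mdivi-1, 1.37 and 1.501 in Ly6G+ vehicle, 1.30 in HSCP Mdivi-1 and 1.07 in HSCP vehicle. Bcl2 came next in both HSCP libraries, above Bcl2l11, Bbc3 and Bcl2a1b. In Ly6G+ cells Bcl2l11 took that place, and Bcl2 was the lowest of the 8 apart from Bbc3 in the second Mdivi-1 library.

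Genes with profiles most like a member's are given for Mcl1, Bcl2 and Bax, whose profiles spanned at least 1 on the log2 scale. Likeness was the root mean square difference of centred log2(TPM + 1) profiles over the 6 libraries. It was taken among 8736 genes with an established symbol and a mean of 5 TPM or more. Closest to Mcl1 were Txnip (0.033), which encodes an inhibitor of thioredoxin, Plk3 (0.051), a polo-like kinase gene, and Tlr4 (0.056), the endotoxin receptor gene. Plk3 stood at only 1.70 TPM in HSCP Mdivi-1 and 1.81 TPM in HSCP vehicle, and this scale understates changes of low genes. Txnip stood at 560.3 and 547 TPM in Ly6G+ Mdivi-1, against 391 and 376 TPM in Ly6G+ vehicle, and at 158 TPM in HSCP Mdivi-1, against 165 TPM in HSCP vehicle. Closest to Bcl2 were Polr1c (0.055), Rps15a (0.073) and Sigirr (0.073), and closest to Bax were Ap3s2 (0.013), Actr5 (0.028) and Fut11 (0.032). These distances rank genes over the same 6 libraries and carry no test.

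Around the family, 91 genes of 13 lists of the death and survival machinery were examined, of which 75 were tested between Mdivi-1 and vehicle in Ly6G+ cells. Of these, 6 were higher and 3 lower with Mdivi-1 (12% called, against 6.7% of all genes). The lists were chosen with earlier results of these data known, so nothing is read from that share. Among the lower calls, 1, that of Il7r, was of a gene that reached 1 TPM in 1 arm only. No gene passed among the other survival genes (0 of 1), the other BH3-only genes (0 of 4), the BCL2-like and BNIP genes (0 of 4), the apoptosome and caspases (0 of 8), the VDAC channels (0 of 3) or the death receptor pathway (0 of 10). Bok, the third effector gene, was too low to be tested there. Birc3, an inhibitor-of-apoptosis gene, was the 1 call among 8 genes of its list, with 207 and 191 TPM with Mdivi-1, against 140.3 and 150.3 TPM with vehicle (change 0.45, limma adjusted p = 0.0320). Huwe1 was the 1 call among 4 genes for ubiquitin enzymes that act on MCL1 or BIM, and it encodes a ligase known to mark MCL1 for degradation. It stood at 21.0 and 21.2 TPM with Mdivi-1, against 27.8 and 27.5 TPM with vehicle (change -0.37, limma adjusted p = 0.0424), a call that ended under both other scalings (-0.32, limma adjusted p = 0.0591 and 0.0625).

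The other calls lay among regulators. In the p53 list 2 of 9 were higher: Plk2, a polo-like kinase gene, with 5.62 and 5.46 TPM with Mdivi-1, against 1.25 and 1.65 TPM with vehicle (change 1.42, limma adjusted p = 0.0138), and Trp53inp1, a stress gene induced by p53 (change 0.49, limma adjusted p = 0.0232). Nfkbia, which encodes the inhibitor that holds NF-kB in the cytoplasm, was the 1 call of 9 in its list, with 156 and 145 TPM with Mdivi-1, against 81.1 and 85.2 TPM with vehicle (change 0.85, limma adjusted p = 0.00639). Over those 9 genes the median change was -0.22. Tsc22d3, the glucocorticoid-induced leucine zipper gene, was the 1 call of 6 among FOXO factors and regulators that act on BIM (change 0.82, limma adjusted p = 0.00787). It had 189.98 and 177 TPM with Mdivi-1, against 108 and 99.4 TPM with vehicle.

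Among 9 cytokine receptor genes, 1 was higher and 2 lower. Csf3r, the receptor for the granulocyte growth factor G-CSF, had 593 and 542 TPM with Mdivi-1, against 385 and 392 TPM with vehicle (change 0.54, limma adjusted p = 0.0163). Csf3r also belongs to the late neutrophil markers. Il7r, the interleukin-7 receptor gene of lymphoid cells, had 0.597 and 0.537 TPM with Mdivi-1, against 2.35 and 2.39 TPM with vehicle. It reached 1 TPM in the vehicle arm only and so entered the test through the arm where it was high, and nothing is read from its lower call. The calls of Birc3, Huwe1, Trp53inp1 and Plk2 ended when any 1 of the 4 libraries was left out. Those of Csf3r, Nfkbia and Tsc22d3 ended without either vehicle library and held without either Mdivi-1 library.

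**Figure D4:**
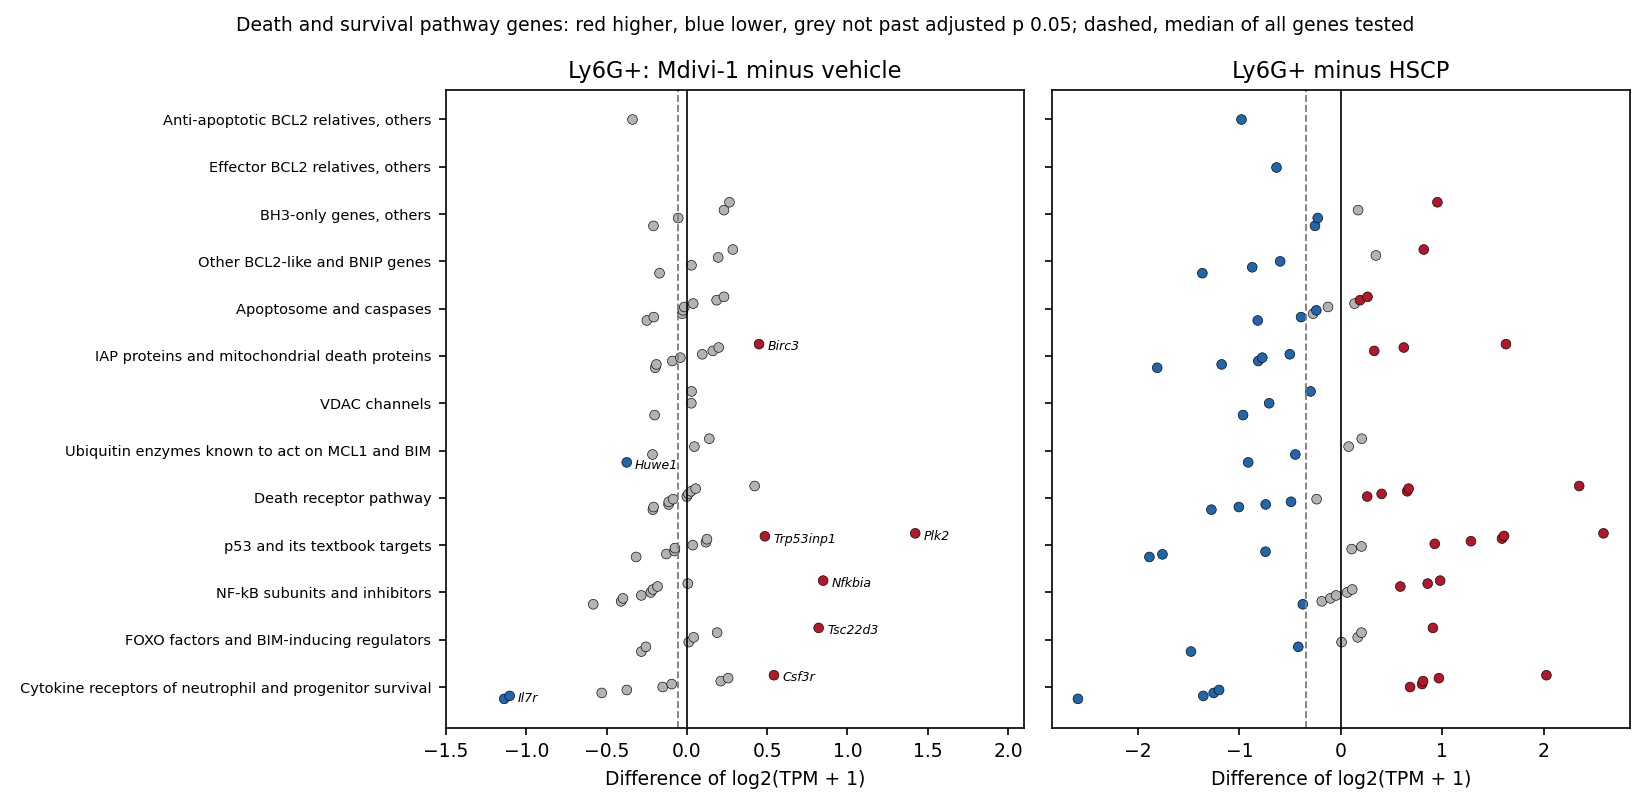
Differences of log2(TPM + 1) for tested genes of 13 lists of the death and survival machinery outside the members, 1 point per gene. Red and blue mark higher and lower calls at a limma adjusted p under 0.05, grey points did not pass, and dashed lines mark the median of all genes. For Mdivi-1 minus vehicle in Ly6G+ cells 6 points are red and 3 blue, and for Ly6G+ minus HSCP 26 are red and 34 blue.

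Between populations, 78 of the 91 genes were tested, and 26 were higher and 34 lower in Ly6G+ cells (76.9% called, against 72.4% of all genes). Nothing is read from that share either, since the lists were chosen with earlier results known. Of the calls, 5 were of genes that reached 1 TPM in 1 population only. Such genes entered the test through the population where they were high, and nothing is read from their calls. These were Plk2 and Il7r among the higher, and Bok, Bcl2l14 and Phlda3 among the lower, and they are named after their values were seen. Among the relatives of the members, Bcl2l2, which encodes the survival protein BCL-W, was lower (-0.98, limma adjusted p = 0.00123), with 3.13 to 5.34 TPM in Ly6G+ cells and 9.33 and 9.65 TPM in HSCPs. Bok stood at 0.0474 to 0.946 TPM in Ly6G+ cells and at 1.20 and 1.30 TPM in HSCPs, too low to read. Of 4 other BH3-only genes 1 was higher and 2 were lower. Bmf, whose product responds to detachment and cytoskeletal stress, was higher by 0.95 (limma adjusted p = 0.0186), which became 0.57 without the HSCP Mdivi-1 library and no longer passed (limma adjusted p = 0.206), while Bid (-0.26) and Bad (-0.23) were lower by less than the median gene, and their signs turned under both other scalings. Among 5 BCL2-like and BNIP genes 1 was higher and 3 were lower, with Bcl2l12 at -1.37 and the mitophagy receptor gene Bnip3l at 0.82.

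Downstream of the mitochondrion, 2 of 8 apoptosome and caspase genes were higher and 3 lower, led by Cycs, which encodes cytochrome c, at -0.82 (limma adjusted p = 0.000301). Casp2 (-0.39) did not pass under either other scaling, and Casp9 was higher by 0.26 (limma adjusted p = 0.0403). The Casp9 call held in 1 of 6 fits that left out 1 library, with values of 0.15 to 0.37, and median-of-ratios scaling gave a change of 0.62 (limma adjusted p = 0.000859). In the list of IAP and mitochondrial death proteins 3 of 8 were higher and 5 lower. Endog, a mitochondrial nuclease gene, was lower, at -1.81, as was the protease gene Htra2, at -1.17, while Birc3 was higher, at 1.63. All 3 VDAC genes, which encode channels of the outer membrane, were lower, at -0.96 for Vdac1, -0.71 for Vdac3 and -0.30 for Vdac2, and the sign for Vdac2 turned under both other scalings. Of 4 genes for ubiquitin enzymes, 2 were lower, Huwe1 (-0.91) and Btrc (-0.45), and the call for Btrc ended under both other scalings.

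In the death receptor list 5 of 10 were higher and 4 lower. Fas, the receptor gene itself, had 38.3 to 42.9 TPM in Ly6G+ cells and 5.80 and 8.58 TPM in HSCPs (2.35, limma adjusted p = 1.9e-05), while its adaptor gene Fadd (-1.01) and the necroptosis kinase gene Ripk3 (-1.28) were lower. In the p53 list 5 of 10 were higher and 3 lower. Trp53, the p53 gene, had 34.2 to 47.2 TPM in Ly6G+ cells and 142 and 140.5 TPM in HSCPs (-1.76), and the nuclease gene Aen was lower, at -1.89, while Trp53inp1 was higher by 2.59.

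NF-kB genes were higher in 3 of 9 and lower in 1, with Nfkbia at 0.98, Rel at 0.86 and Relb at 0.59. Among FOXO factors and regulators that act on BIM, 1 of 6 was higher, Tsc22d3 at 0.91, and 2 were lower, the cell cycle factor gene E2f1 at -1.48 and Foxo4 at -0.42, with the call for Foxo4 lost under both other scalings. Of 9 cytokine receptor genes 5 were higher and 4 lower, with Csf3r at 2.03, Kit at -2.59 and Flt3, a receptor gene of early progenitors, at -1.36. Kit and Flt3 belong to the stem and progenitor markers, so their place here repeats the sort.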

How the data were processed

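RNA libraries of 6 sorted bone marrow samples were compared through 1 table of gene-level values. The authors deposited TPM values, which correct for transcript length, for 28987 genes. Per the submitters' processing notes, bcl2fastq, CASAVA 1.8 and kallisto were used with build mm10. No source used here gives the kallisto version, annotation or strand setting. Identifiers were matched to GENCODE M21, giving 27458 symbols and leaving 1529 genes unnamed. Library totals were 963243.1 to 979168.3 TPM.

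Values were tested as log2(TPM + 1), which understates changes of low genes, with limma 3.58.1 in R 4.3.3 (trended, robust prior). Genes needed 1 TPM in at least 2 libraries compared, and Benjamini-Hochberg adjustment ran over all genes tested, with a threshold of 0.05. Residual degrees of freedom were 2 for the treatment test in Ly6G+, 3 between populations and 2 for the interaction. The procedure was also run on simulated data with spread taken from these libraries, which says nothing of the spread between mice. Alternatives covered scaling, pseudocount, filter, prior, block, covariate and left-out libraries. The members, gene lists and naming rule were chosen with earlier results of these data known. Named pathway genes were those called in Ly6G+ and up to 3 per list with the largest called change between populations. Promoters came from RefSeq (GRCm38.p6), which matched all 10 members. Of the pathway genes called in Ly6G+, 1 is counted but not reported by name here.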

Additional observations from a re-analysis of the deposited data

How the results depend on the processing

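The count of genes called between Mdivi-1 and vehicle in Ly6G+ cells depended on the fit. It was 789 as reported, 218 without a filter on low values, 346 with a plain prior, 325 with the replicate block and 22 to 279 when 1 library was left out. Median-of-ratios and upper-quartile scaling gave 759 and 756 calls, of which 49.9% and 50.3% were higher, against 36.8% as reported. Of the members, 1 was called, and this became 0 with a plain prior and 0 in every fit that left out 1 library. With the replicate block Mcl1 kept its call (limma adjusted p = 0.0436) while Birc3, Huwe1, Trp53inp1 and Il7r lost theirs. Same-numbered libraries deviated with r = -0.031 across 11775 genes, so the numbers were not taken as pairs. For the interaction, 0 genes were called as reported, 1 with a pseudocount of 0.1, 6 at a minimum of 5 TPM and 0 to 2 when 1 library was left out. Between populations, all gene counts stayed within 1.5 times of 8938, and 50.5% and 46.5% of calls were higher after median-of-ratios and upper-quartile scaling, against 30.6% as reported. Some uncalled or small changes turned sign, and the cause was not tested. Between Mdivi-1 and vehicle in Ly6G+, Bcl2l1 became 0.0328 with median-of-ratios and 0.0366 with upper-quartile scaling. With 1 library left out, the values there ran from -0.22 to 0.18 for Bcl2l1, from -0.34 to 0.15 for Bcl2a1b, from -0.0367 to 0.166 for Bcl2l11 and from -1.10 to 0.0568 for Bbc3. Between populations, median-of-ratios scaling gave 0.18 for Bcl2l1, 0.13 for Bid, 0.15 for Bad and 0.0879 for Vdac2, and upper-quartile scaling gave 0.12, 0.0554, 0.0789 and 0.0158 in the same order of genes. Bcl2a1b ran from -0.27 to 0.41 with 1 library left out. In the interaction, Bax became 0.0955 with median-of-ratios and 0.0782 with upper-quartile scaling, and with 1 library left out it ran from -0.0465 to 0.0282 and Bbc3 from -0.71 to 0.44. A sum over the A1 copies was not run, because Bcl2a1b was the only copy in the table with values above 0. With 2 libraries an arm in Ly6G+ cells, small differences could be missed. An interval that left out 0 did not by itself bring a call, as for Mcl1 in the interaction. Treatment differences in HSCPs, with 1 library an arm, had no interval and no test.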
